A study of Mus musculus with 250 samples.

Results

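The nuclear genes of the mitochondrial respiratory chain were taken as all rows of the count table whose names begin with Nduf, Cox and a digit, Uqcr or Atp5, or are Sdha, Sdhb, Sdhc or Sdhd. This rule found 101 of 24490 gene rows, of which 98 had at least 1 read. By known role they comprised 36 genes of complex I, 4 of complex II, 8 of complex III, 20 of complex IV, 15 of complex V and 16 assembly factors. Atp5s and Atp5sl matched the rule by name and were placed in none of these lists. The samples were 250 single cells of 1 group, labelled brain astrocytes, from adult C57BL/6 mice of about 3 months that carried SM22-Cre;Rosa26-stop-tdTomato. In this reporter the promoter of SM22 (Tagln, a smooth muscle gene) drives Cre, which switches on the red protein tdTomato; the sort gate is not stated in the labels. The column headers call the cells VSMC and place 162 on a plate numbered 2 and 88 on a plate numbered 3. No label names the animals, so the values describe these cells as a single group, an SD is the spread between cells, and no test across cells was made.

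The respiratory chain sits in the inner mitochondrial membrane. Complexes I (NADH dehydrogenase) and II (succinate dehydrogenase) pass electrons to quinone, complex III passes them to cytochrome c, and complex IV (cytochrome c oxidase) passes them to oxygen. Complexes I, III and IV pump protons, and complex V (ATP synthase) uses their return to make ATP. Most subunits are encoded in the nucleus and some in mitochondrial DNA. The mitochondrial transcripts had no rows in the table and were not analysed here. Astrocytes are often described as relying heavily on glycolysis, yet they hold mitochondria and oxidise fuels.

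Of the 10 astrocyte markers, 9 were detected in at least 50% of cells, with detection meaning 10 CPM or more (reads of a gene divided by all reads of the cell, scaled to 1000000). Gja1, a gap junction gene, was detected in all 250 cells. The summed level of the 10 markers ran from 13151 CPM in the lowest cell through a median of 30178 CPM to 53323 CPM in the highest. The summed neuron markers had a median of 7.64 CPM and reached 2205 CPM, and the summed oligodendrocyte markers had a median of 17.1 CPM and reached 2611 CPM. The 6 summed pericyte markers had a median of 6.73 CPM and reached 1202 CPM. Of these, Pdgfrb was detected in 94 cells (37.6%, mean 88.4 CPM), Vtn in 13, Rgs5 in 3, Higd1b in 2 and Kcnj8 and Abcc9 in 0. The 5 summed smooth muscle markers had a median of 6.93 CPM and reached 230 CPM. Acta2 was detected in 39 cells (15.6%), and Tagln itself, the gene behind the reporter, in 5 cells. The cells held 102161 to 564958 reads (median 282290), and the median was 256247 on plate 2 and 391072 on plate 3.

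The promoters of this gene group are a textbook case of nuclear control of mitochondria, through the factors NRF1, GABP (an ETS factor) and YY1. RefSeq promoter windows on GRCm38.p6, from 250 bases before to 50 bases after a start, were at hand for 83 of the 101 genes (90 windows). The NRF1 motif CATGCGC, read on both strands as all motifs here, lay in 16.7% of these windows and in 3.91% of all 32851 windows. The ETS motif CCGGAAG lay in 25.6% against 8.86%, and the YY1 motif AAGATGGC in 15.6% against 2.75%. At least 1 of these 3 motifs was found in 46.7% of the windows of respiratory chain genes, in 14.2% of all windows and in 17.9% of the windows of other genes detected in at least 50% of cells. The Sp1 motif GGGCGG lay in 45.6% of the windows, 35.7% of all windows and 60.8% of those of other widely detected genes. TATAAA lay in 10.0% of the windows, 13.6% of all windows and 8.33% of those of other widely detected genes. None of these motifs contains another. A match describes letters only and is not a binding site.

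The first 3 motifs were also sought in stretches of at most 150 bases before the start that held no GENCODE exon. Not all of the 83 genes had such a stretch. In 9 genes the stretch held any of these motifs. No share over all promoters was computed for such stretches. Whether the motifs are more frequent in them than in those of other genes was therefore not tested. Only exons were checked, so whether a stretch lies in an intron was not tested. The stretches of the 5 structural subunits among the 9 genes are shown, with that of Cox20, the only gene of the 9 with 2 kinds of motif. They are given 5′ to 3′ on the gene's strand with the motifs in capitals. Atp5e and Uqcr11 hold the ETS motif, Cox5b, Ndufa6 and Ndufb6 the NRF1 motif, and Cox20 an ETS and a YY1 motif.
Atp5e (complex V), GRCm38.p6 chr2:174464106-174464255, minus strand: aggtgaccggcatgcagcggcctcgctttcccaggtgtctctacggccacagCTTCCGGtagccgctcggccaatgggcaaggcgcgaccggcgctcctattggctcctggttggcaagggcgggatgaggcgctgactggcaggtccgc
Uqcr11 (complex III), GRCm38.p6 chr10:80406831-80406980, minus strand: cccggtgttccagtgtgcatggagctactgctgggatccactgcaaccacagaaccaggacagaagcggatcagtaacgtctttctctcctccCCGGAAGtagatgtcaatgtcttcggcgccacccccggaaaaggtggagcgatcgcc
Cox5b (complex IV), GRCm38.p6 chr1:36691299-36691448, plus strand: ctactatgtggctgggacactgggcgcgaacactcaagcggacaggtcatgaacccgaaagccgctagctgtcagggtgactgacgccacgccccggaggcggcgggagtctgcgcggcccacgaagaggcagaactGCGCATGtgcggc
Ndufa6 (complex I), GRCm38.p6 chr15:82354323-82354472, minus strand: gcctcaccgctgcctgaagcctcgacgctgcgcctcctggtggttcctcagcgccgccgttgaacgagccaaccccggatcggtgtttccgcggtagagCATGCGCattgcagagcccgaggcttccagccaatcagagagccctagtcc
Ndufb6 (complex I), GRCm38.p6 chr4:40279422-40279571, minus strand: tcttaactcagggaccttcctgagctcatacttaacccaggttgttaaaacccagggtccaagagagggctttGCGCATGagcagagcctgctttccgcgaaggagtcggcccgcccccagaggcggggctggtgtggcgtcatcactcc
Cox20 (complex IV assembly), GRCm38.p6 chr1:178318980-178319129, plus strand: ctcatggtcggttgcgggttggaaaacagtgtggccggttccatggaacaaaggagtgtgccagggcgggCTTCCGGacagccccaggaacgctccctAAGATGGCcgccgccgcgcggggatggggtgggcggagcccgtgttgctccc

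The structural subunits together, tissue isoforms included, made up 1.16% of the reads of a cell. Their summed level was 11558 ± 3655 CPM (SD over 250 cells), from 4536 CPM in the lowest cell through a median of 11568 CPM to 33122 CPM in the highest. The plates lay close together, at 11527 ± 3960 CPM on plate 2 and 11615 ± 3037 CPM on plate 3. Of the 101 genes, 51 were detected in at least 50% of cells, against 5.92% of the 16367 genes with reads. All 51 were structural: 20 of 36 genes of complex I, 2 of 4 of complex II, 7 of 8 of complex III, 10 of 20 of complex IV and 12 of 15 of complex V. By role, the common subunits of complex IV had the highest median share of detecting cells, 83.6% (10 of 11 genes in at least 50% of cells). The F1 catalytic head of complex V followed at 78.0% (5 of 5). All genes also reached 50% in the peripheral stalk of complex V (4 of 4), the core and Rieske subunits of complex III (3 of 3) and the catalytic pair of complex II (2 of 2). None of the 16 assembly factors and none of the 8 tissue isoforms of complex IV reached 50%. Counts of 0 in lists of 16 and 8 lie near the 5.92% of all genes with reads. A cell had 22 to 63 of the 83 structural genes detected, with a median of 43, and with each cell thinned to 50000 reads the median was 42. This number moved with the number of all genes detected in the cell (Spearman rho 0.64 over the cells of plate 2 and 0.70 over those of plate 3) and not with total reads (0.003 and 0.043).

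At a like mean level these genes were detected in more cells than most genes. Among genes with a mean of 100 to 200 CPM, the 26 respiratory chain genes were detected in a median of 67.0% of cells and all 1071 genes in a median of 40.4%. For 50 to 100 CPM the medians were 55.2% for 19 genes and 25.2% for all 2039. For 10 to 50 CPM they were 26.8% for 25 genes and 12.0% for all 5330. The gap was narrow at 200 to 500 CPM, 69.2% for 13 genes against 62.4% for all 528. Respiratory chain transcripts are short, with a median of 1117 exonic bases at 100 to 200 CPM against 3871 for all genes of that class. Against genes of like size the gap was about as wide: of those under 1500 bases at 100 to 200 CPM, the 17 respiratory chain genes had a median of 71.6% and 78 other genes a median of 42.8%.

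**Figure D1:**
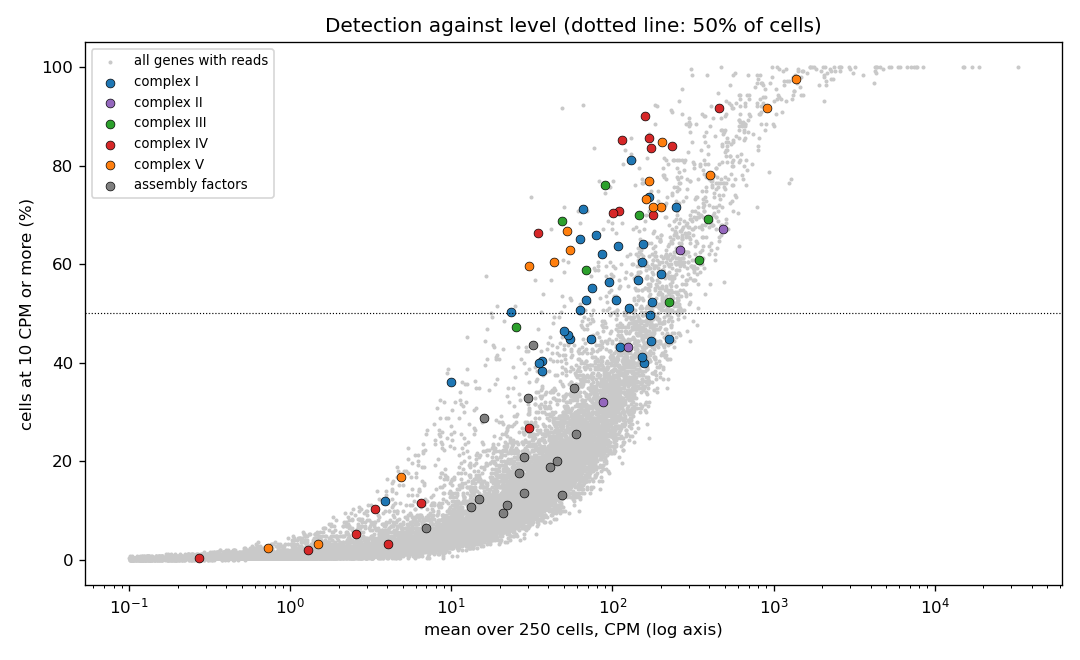
Each point is 1 gene; the x axis is its mean level over 250 cells in CPM (log axis, genes at 0.1 CPM or more) and the y axis the percentage of cells at 10 CPM or more. Grey points are all genes with reads and coloured points the respiratory chain genes by complex. Most coloured points of complexes I, III, IV and V lie along the upper edge of the grey cloud between 10 and 200 CPM. The assembly factors, with means of 7.00 to 59.8 CPM, lie at 6.40 to 43.6% of cells.

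Complex I, the entry point for NADH, had the most subunits and the lowest level per transcript length. The core subunits of its matrix arm, which hold the flavin and iron-sulfur clusters, were detected in 44.4 to 64.0% of cells. Ndufv2 of the NADH-binding module had 0 CPM in the lowest cell, a median of 89.3 CPM and a highest value of 1262 CPM (mean 201 ± 257 CPM, 145 cells). Ndufs7, which carries the cluster next to quinone, had a median of 93.8 CPM and a highest value of 1043 CPM, and was detected in 160 cells. Among the accessory subunits Ndufa13 was the most widely detected, in 203 of 250 cells (81.2%, exact binomial interval 75.8 to 85.8%, counting error only), with 131 ± 143 CPM.

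Per kilobase of exon the 3 highest complex I genes were all of the membrane arm: Ndufb9 at 353 CPM per kb, Ndufc2 at 223 and Ndufb10 at 196. Ndufb9 had a median of 183 CPM and a highest value of 2035 CPM (mean 249 ± 302 CPM, 179 cells). Ndufc2 had a median of 107 CPM and a highest value of 1898 CPM (mean 168 ± 228 CPM, 184 cells), and Ndufb10 averaged 152 ± 196 CPM in all cells and was detected in 151. Ndufb9 shares 23.4% of its 50-base words with an overlapping gene model, so its reads cannot all be assigned to it with certainty. The median complex I gene stood at 88.8 CPM per kb. Ndufs5 was the lowest, at 0.068 CPM per kb, with 4 reads in all 250 cells.

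Complex II, which also belongs to the citric acid cycle, was carried by its catalytic pair. Sdha, the flavin subunit, had a median of 262 CPM and a highest value of 2744 CPM (mean 485 ± 568 CPM), and was detected in 168 cells. Sdhb, the iron-sulfur subunit, had a median of 157 CPM and a highest value of 2721 CPM (mean 264 ± 357 CPM, 157 cells). The membrane anchors Sdhc and Sdhd, which hold heme and quinone, averaged 125 ± 203 and 87.8 ± 189 CPM over all cells and were detected in 108 and 80. Per kb the order was Sdhb (231 CPM per kb), Sdha (167), Sdhd (71.3) and Sdhc (38.6), so the membrane anchors lay below the catalytic pair. The complex II sum was 0 CPM in 9 cells, which no other complex showed. It also has the fewest genes.

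Complex III was detected evenly, with all but Uqcrb above 50% of cells. Uqcrc1, a core subunit, had 393 ± 456 CPM, a median of 283 CPM and a highest value of 2802 CPM. Uqcrfs1, the Rieske iron-sulfur protein, had 345 ± 435 CPM, a median of 247 CPM and a highest value of 3323 CPM. The small subunits were lower in CPM and mixed per length, with a median of 109 CPM per kb against 221 for the core and Rieske subunits. Uqcrh, the hinge protein next to cytochrome c1, stood first of the complex at 269 CPM per kb (mean 147 ± 196 CPM, 175 cells), ahead of Uqcrfs1 at 253 and Uqcrc1 at 221. Uqcr10 stood at 209 CPM per kb and was the most widely detected gene of the complex, in 190 cells. Uqcr11 (109 CPM per kb), Uqcrb (47.1) and Uqcrq (37.4) lay below every core subunit. Uqcrq, a small quinone-side subunit, had 68.4 ± 94.0 CPM, and Uqcrb was the lowest in CPM, at 25.2 ± 39.7. Of the coding 50-base words of Uqcrb, 72.9% recur in copies elsewhere, so its count is uncertain.

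Complex IV had the widest detection and the highest level per length among common subunits. Cox4i1, the regulatory subunit that the complex needs for assembly, had a median of 409 CPM and a highest value of 1809 CPM (mean 460 ± 342 CPM). It was detected in 229 cells (91.6%, exact binomial interval 87.5 to 94.7%) and stood at 601 CPM per kb, the highest of the complex. Ndufa4, named for complex I but known as a complex IV subunit, followed at 376 CPM per kb, with 235 ± 253 CPM over all cells, of which 210 detected it. Cox6a1 (293 CPM per kb), Cox8a (291), Cox6b1 (280) and Cox5a (279) lay within a narrow band, far less apart than the spread between cells. Cox6a1 averaged 167 ± 163 CPM and was detected in 214 cells. Cox8a was detected in 225 cells and averaged 160 ± 125 CPM over all cells, an SD below its mean. Cox4i1 and Cox5a share 14.7% and 29.2% of their 50-base words with overlapping gene models. Of the 11 common subunits Cox5b (37.4 CPM per kb) and Cox7c (2.96 CPM per kb) were the lowest. In them 61.5% and 100% of the coding words recur in copies elsewhere, so their counts are uncertain.

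Tissue isoforms of complex IV subunits were rare. The muscle isoforms Cox6a2 and Cox8b and the testis isoform Cox8c had no read in any cell. For each, 0 of 250 cells allows a share of cells with a read of up to 1.2% by 3 counts, and of up to 1.46% by the exact binomial interval, for counting error only. Cox7a1, the heart and muscle form of Cox7a2, was detected in 13 cells (2.57 ± 13.3 CPM, highest 120 CPM) and Cox7a2 in 177 (109 ± 129 CPM), and per kb Cox7a1 held 2.82% of the pair. Cox6b2, the testis form of Cox6b1, was the most frequent, in 29 cells (11.6%, exact binomial interval 7.91 to 16.2%) at 6.51 ± 24.5 CPM against 173 ± 159 CPM for Cox6b1, and held 3.05% of the pair's level per kb. Its share was alike on the plates, 2.93% on plate 2 and 3.22% on plate 3. Cox7b2 was detected in 8 cells (4.06 ± 29.5 CPM) and held 6.88% against Cox7b (101 ± 112 CPM, 176 cells), with 1 cell at 358 CPM, without which the share was 4.58%.

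A further pair of isoforms is known from vascular cells and low oxygen. Cox4i2, the form found in lung and in oxygen-sensing cells, was detected in 5 cells, all of which also had Cox4i1, and held 0.270% of the pair's level per kb. Its highest cell, at 169.7 CPM, gave 52.9% of its summed CPM, and without that cell the share was 0.128%. Ndufa4l2, which rises in hypoxia and is abundant in pericytes, was detected in 1 cell, at 40.9 CPM, and held 0.0775% against Ndufa4, or 0.0310% without that cell. In all, 55 cells (22.0%, exact binomial interval 17.0 to 27.7%) had at least 1 of the 8 tissue isoforms. Their summed astrocyte markers had a median of 30147 CPM, against 30205 CPM in the 195 other cells. At least 2 of 6 pericyte markers were detected in 1 of the 55 cells and in 6 of the 195, and at least 2 of 5 smooth muscle markers in 1 and 2 cells. Cox7a2l, which joins complexes III and IV into supercomplexes, was detected in 67 cells at 30.4 ± 64.2 CPM.

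Complex V held the most abundant genes of the group. Atp5b, the catalytic beta subunit, had 0 CPM in the lowest cell, a median of 1319 CPM and a highest value of 4076 CPM (mean 1382 ± 841 CPM). It was detected in 244 cells (97.6%, exact binomial interval 94.9 to 99.1%) and stood first of all 101 genes per length, at 721 CPM per kb (GENCODE gene on GRCm38 chromosome 10, 128083273 to 128090391). Atp5a1, the alpha subunit, had a median of 763 CPM and a highest value of 3631 CPM (mean 909 ± 755 CPM, 229 cells). Atp5b and Atp5a1 together gave 60.4% of the summed CPM of complex V. Per kb, Atp5b stood above Atp5a1 (313 CPM per kb), although the enzyme holds alpha and beta in equal number.

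The remaining F1 and stalk subunits were lower. Atp5c1, the rotating gamma subunit, had 402 ± 421 CPM (211 CPM per kb), and the delta and epsilon subunits Atp5d and Atp5e stood at 126 and 129 CPM per kb. The peripheral stalk, which holds the head still, was detected in 66.8 to 84.8% of cells for its 4 genes, led by Atp5j in 212 cells. In the c ring, the proton-driven rotor, nearly all reads came from 1 of 3 genes. Atp5g1, Atp5g2 and Atp5g3 encode the same mature protein behind different presequences. Atp5g3 had a median of 98.5 CPM and a highest value of 1149 CPM (mean 169 ± 205 CPM) and was detected in 192 cells. Atp5g1 was detected in 42 cells at 4.87 ± 9.48 CPM and Atp5g2 in 6 cells at 0.729 ± 2.92 CPM. Atp5g3 was the third highest of the complex per length (233 CPM per kb) and Atp5g2 the lowest (0.435). Per kb, Atp5g3 held 99.6% of its sum with Atp5g1, and the same share on plate 2 and 99.5% on plate 3. Of the coding 50-base words of Atp5g1 and Atp5g2, 99.7% and 100% recur in copies elsewhere, against 0% for Atp5g3. How far this share reflects the assignment of reads was not tested.

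**Figure D2:**
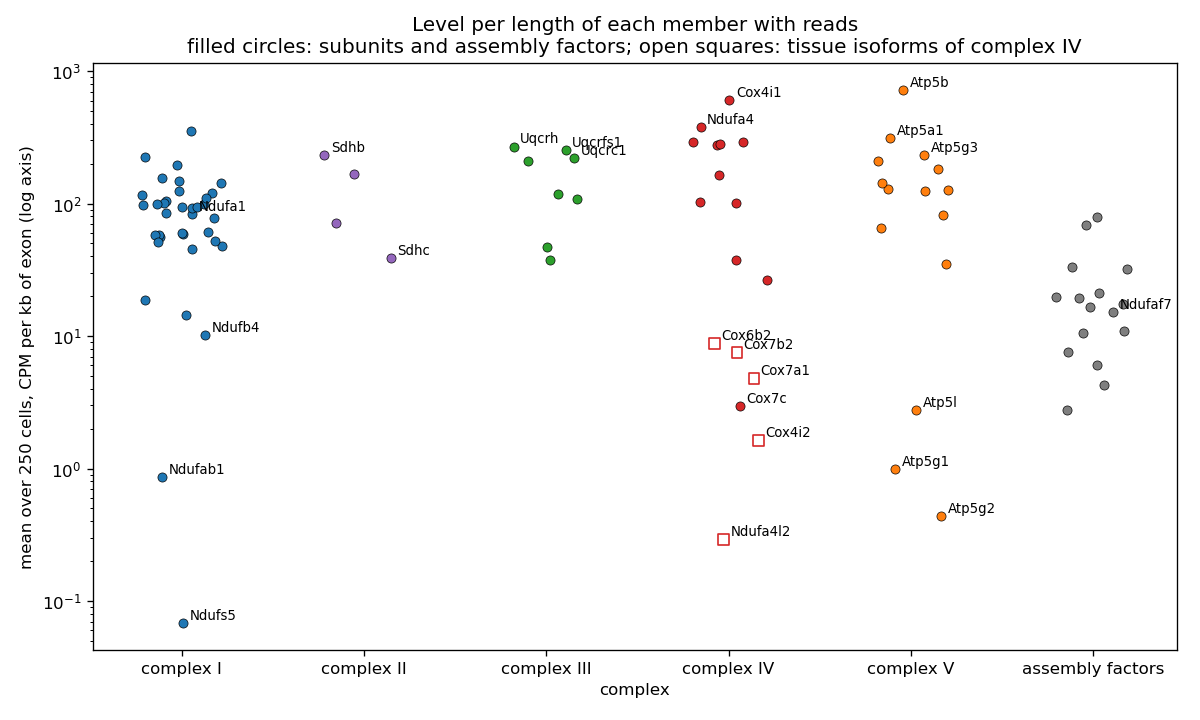
Each point is 1 gene with reads, placed by complex on the x axis; the y axis is its mean CPM per kb of exon over 250 cells (log axis). Filled circles are subunits and assembly factors and open squares tissue isoforms of complex IV; Atp5b (721) and Cox4i1 (601) stand highest, and Ndufs5, Ndufab1, Cox7c, Atp5l, Atp5g1 and Atp5g2 lie under 3 CPM per kb, among or below the tissue isoforms.

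Some genes of common subunits stood near 0. Of the 75 structural genes that are not tissue isoforms of complex IV, 7 had a mean under 10 CPM: Ndufs5 (0.0583 CPM), Atp5g2 (0.729), Atp5l (1.49), Cox7c (3.35), Ndufab1 (3.85), Atp5g1 (4.87) and Ndufb4 (9.89). They include subunits for which the lists hold no second isoform, such as Cox7c of complex IV, Ndufab1 (the acyl carrier protein of complex I) and Atp5l (the g subunit of complex V). The 7 were near 0 on both plates. Atp5l averaged 1.46 ± 3.58 CPM over the cells of plate 2 and 1.57 ± 3.19 CPM over those of plate 3, with a median of 0 CPM and a highest value of 24.6 CPM.

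Their coding sequences have near-identical copies elsewhere in the genome. For each gene, every 50-base word of its coding sequence was looked up in all GENCODE transcripts of genes that do not overlap it. In 6 of the 75 genes at least 99% of the words recurred, and these were Ndufab1, Ndufb4, Cox7c, Atp5g1, Atp5g2 and Atp5l, all 6 under 10 CPM. The top match was a processed pseudogene in each, such as Gm10012 for Cox7c and Gm10175 for Atp5g2. Over the whole transcript the shares were lower, at 11.6% in Atp5g1, 12.3% in Ndufab1 and 37.0% in Ndufb4. They were 53.0% in Cox7c, 68.5% in Atp5l and 87.4% in Atp5g2. In 8 genes 50 to 99% of the words recurred. Ndufs5, at 72.5% (31.1% over the whole transcript), was under 10 CPM. The other 7, among them Uqcrb (72.9%) and Cox5b (61.5%), had up to 201 CPM. In the 12 genes at 10 to 50% the lowest mean was 23.4 CPM, and in the 49 genes under 10% it was 30.5 CPM and the median 153 CPM. Atp5g3, which has no such copy (0%), was the c ring gene with a mean above 10 CPM.

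Genes of the same pathway outside the name rule gave like values. Of 59 such genes 2 had at least 99% of their coding words in a copy, and both were under 10 CPM. They were Cycs (cytochrome c, 3.44 ± 9.04 CPM) and Usmg5 (listed with ATP synthase, 8.49 ± 11.2 CPM). Of the 50 under 10% shared, 3 were under 10 CPM. Read length, and how reads with several matches were counted, are stated neither in the labels nor in the header. The part of these copies in the low values was not tested. The counts of the 7 structural genes under 10 CPM are uncertain, as are those of other genes with at least 50% of coding words in a copy.

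**Figure D3:**
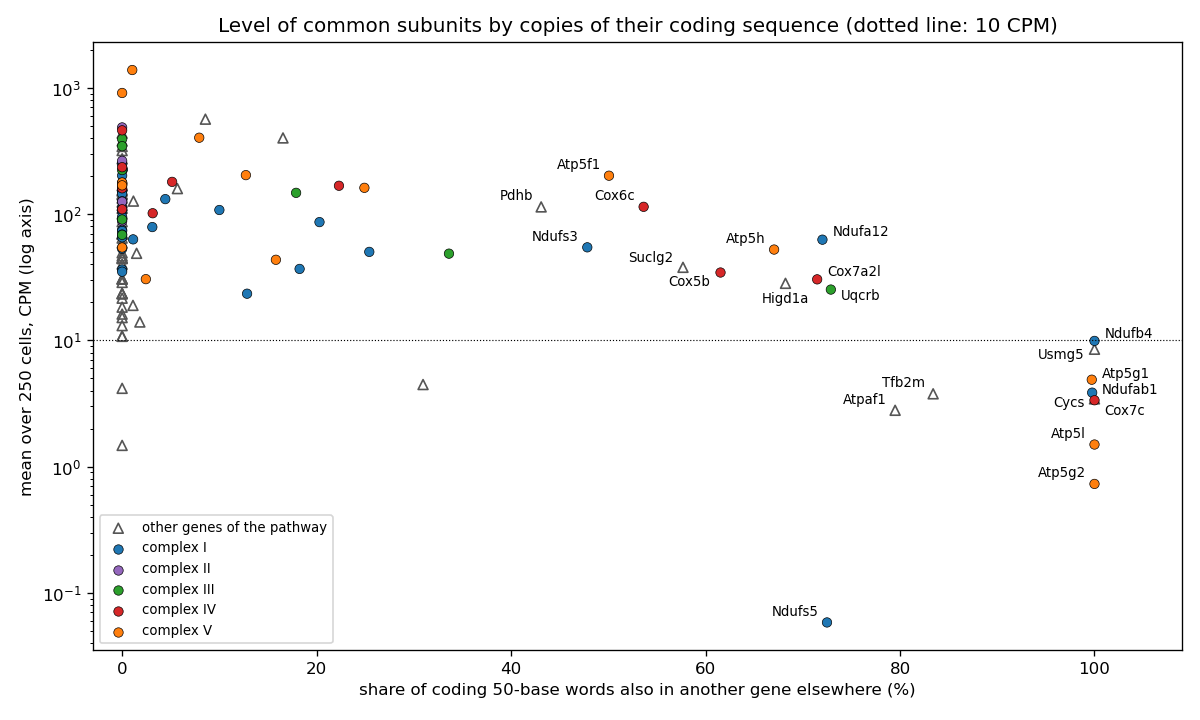
Each point is 1 gene with reads; the x axis is the percentage of its coding 50-base words that also occur in another gene elsewhere, and the y axis its mean over 250 cells in CPM (log axis, dotted line at 10 CPM). Circles are the 75 structural genes that are not tissue isoforms, coloured by complex, and triangles other genes of the pathway; the 6 circles and 2 triangles at 99% or more all lie under the line.

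Per length, complex IV stood highest and complex I lowest among common subunits. The mean over common subunits, the supercomplex factor Cox7a2l counted with the 11 of complex IV, was 213 ± 98.9 CPM per kb in complex IV, 158 ± 65.4 in complex V, 158 ± 95.9 in complex III, 127 ± 108 in complex II and 92.1 ± 37.4 in complex I (SD between cells). Neighbours in this order differed by less than the SD between cells. Complex IV was above complex I in 243 of 250 cells, 96.3% of cells on plate 2 and 98.9% on plate 3. Complex V was above complex I in 221 cells, but complex II was above complex I in only 137 and below it in 113, so the lowest place was hardly ordered cell by cell. Complexes III and V could not be ordered, as each was above the other in 125 cells. Among genes with under 50% of coding words in a copy, the means were 298 for complex IV, 218 for complex V, 174 for complex III, 127 for complex II and 102 for complex I. The first place of complex IV rests on leaving out the tissue isoforms: over all 20 genes its mean was 129 CPM per kb, below complexes III and V. In summed CPM, which favours complexes with many or long genes, complex V (3793 ± 1597 CPM) and complex I (3681 ± 1414 CPM) were highest. Complex IV followed at 1782 ± 807 CPM, then complex III at 1340 ± 834 CPM and complex II at 962 ± 782 CPM.

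**Figure D4:**
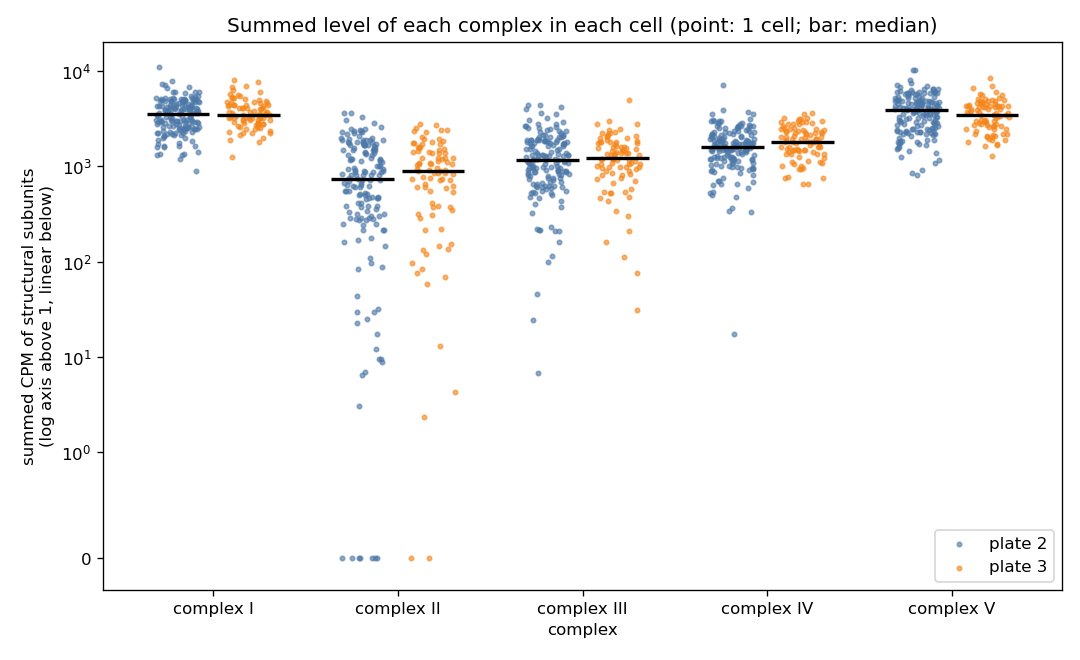
Each point is 1 cell; the y axis is the summed CPM of the structural subunits of a complex (log axis above 1, linear below, so that the 9 cells at 0 for complex II show) and the x axis the complex, with plate 2 in blue and plate 3 in orange. Black bars are medians, which lie at 3523 and 3483 CPM for complex I and at 730 and 900 CPM for complex II on plates 2 and 3.

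Single cells stood apart at both ends. The highest structural sum, 33122 CPM, was that of cell 9 on plate 2, ahead of 23724 CPM in cell 157. Cell 9 also had the highest sums of complex I (11009 CPM) and complex IV (7146 CPM). It had 1282 genes detected, against a median of 2400.5 over all cells, and 33969 CPM of summed astrocyte markers. The lowest complex IV sum, 17.4 CPM, was in cell 103 of plate 2, which had 286627 reads and 2050 genes detected. That cell had 22 structural genes detected, the lowest number on either plate, and 28724 CPM of summed astrocyte markers.

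Assembly factors, which build the complexes but are not part of them, were detected in fewer cells than most structural genes. The medians were 18.2% and 56.8% of cells. The 16 had means of 7.00 to 59.8 CPM (median 28.2 CPM) and were detected in 6.40 to 43.6% of cells. Their level was also lower, as the structural genes had a median of 94.9 CPM. All genes of 10 to 50 CPM, the class of most of the 16, had a median of 12.0% of cells. Against genes of like level the factors were thus not low. Cox14, which aids synthesis of a mitochondrially encoded complex IV subunit, stood first per length at 79.8 CPM per kb, with 57.7 ± 156 CPM over all cells, of which 87 detected it. Cox20, a chaperone of another such subunit, had 68.7 CPM per kb and was detected in 109 cells. The copper carriers Cox17, Cox11 and Cox19 were detected in 72, 50 and 52 cells, and the heme A enzymes Cox10 and Cox15 in 28 and 27 cells. For complex I the most widely detected factor was Ndufaf4 (64 cells, 59.8 ± 161 CPM) and the least Ndufaf5 (16 cells, 7.00 ± 37.3 CPM). Cox16, Cox20 and Cox11 share 88.7%, 59.7% and 50.4% of their words with overlapping gene models (Gm20498, Hnrnpu and Tom1l1), so their counts are uncertain. Atp5sl and Atp5s were detected in 57 and 28 cells.

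Other genes of the pathway, from lists by role, included 9 of 59 detected in at least 50% of cells, against the 5.92% of all genes with reads. Among the electron carriers these were 2 of 5: Cyc1, cytochrome c1 of complex III, had 343 ± 370 CPM over all cells and was detected in 169, and Etfb had 144 ± 218 CPM and was detected in 137. Of 6 genes listed with ATP synthase it was 2010107E04Rik, in 168 cells. GENCODE names it Atp5mpl, but the name rule left it out of the complex V values. Of 16 genes of the citric acid cycle and pyruvate dehydrogenase it was 6, among them citrate synthase, Cs (564 ± 575 CPM, 190 cells). None of 20 further assembly factors reached 50%. None of 12 biogenesis regulators did either, and counts of 0 in lists of 20 and 12 lie near that share; Ppargc1a, the coactivator that drives mitochondrial gene expression, was detected in 114 cells at 168 ± 294 CPM. Of the factors named for the promoter motifs, Nrf1 was detected in 54 cells (21.6%), Gabpa in 40 (16.0%) and Yy1 in 23 (9.2%). All genes of their level class, 10 to 50 CPM, had a median of 12.0% of cells.

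Cells with more reads from one complex tended to have more from some others. The sums of complexes I and IV had a Spearman rho of 0.52 over the 162 cells of plate 2 and 0.53 over the 88 of plate 3, and those of complexes IV and V 0.40 and 0.49. Complexes III and V did not repeat between plates, with 0.27 on plate 2 and -0.03 on plate 3. The structural sum had a rho of 0.43 and 0.32 with the summed citric acid cycle genes, and of 0.01 and -0.13 with the summed astrocyte markers. Sums in 1 cell share a library and a total, and the structural sum itself had a rho of 0.31 on plate 2 and 0.12 on plate 3 with the number of genes detected.

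Between single genes the co-variation was weak. It was measured over the 46 structural genes detected in at least 50% of cells of both plates, as the Spearman rho of CPM over the cells of a plate, averaged over both plates. The mean was 0.074 for the 238 pairs within a complex (0.100 on plate 2, 0.048 on plate 3) and 0.064 for the 797 pairs between complexes (0.078 and 0.050). For all 374545 pairs of 866 widely detected genes it was 0.012, and for structural genes with other genes 0.010. Non-members under 1500 bases had a mean of 0.025 over 2556 pairs, and structural genes under 1500 bases 0.081 over 595 pairs. Both plates gave a positive rho in 57.0% of structural pairs and in 30.8% of all pairs. The difference between pairs within and between complexes was 0.010 on average, 0.022 on plate 2 and -0.002 on plate 3, so pairs within a complex did not stand above pairs between complexes on both plates.

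By complex the means were 0.101 for complex IV (0.135 and 0.067 on plates 2 and 3), 0.094 for complex V (0.121 and 0.067), 0.064 for complex III and 0.052 for complex I. Pair values did not repeat well: over the 1035 structural pairs the rho of plate 2 against plate 3 values was 0.058, as low as the 0.060 of all pairs, so single pairs are given only as examples. Within a complex the 5 pairs with the highest value on their lower plate were Cox6a1 with Cox7b (0.26 and 0.25), Atp5e with Atp5j (0.22 and 0.26), Cox6a1 with Cox8a (0.24 and 0.21), Cox6b1 with Cox8a (0.24 and 0.19) and Uqcrh with Uqcr10 (0.24 and 0.19). All 5 join small subunits. Between complexes, pairs reached values as high, such as Atp5k with Cox8a (0.24 and 0.29). Averaged over all other structural genes and both plates, Cox5a had the highest mean rho (0.11 on both plates) and Uqcrc2 the lowest (0.056 and -0.025). The ranks differed by plate. On plate 2 Cox6b1 stood above Cox5a (0.140) and Ndufv2 below Uqcrc2 (0.007). On plate 3 Atp5j stood above Cox5a (0.112) and Uqcrc2 was the lowest.

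**Figure D5:**
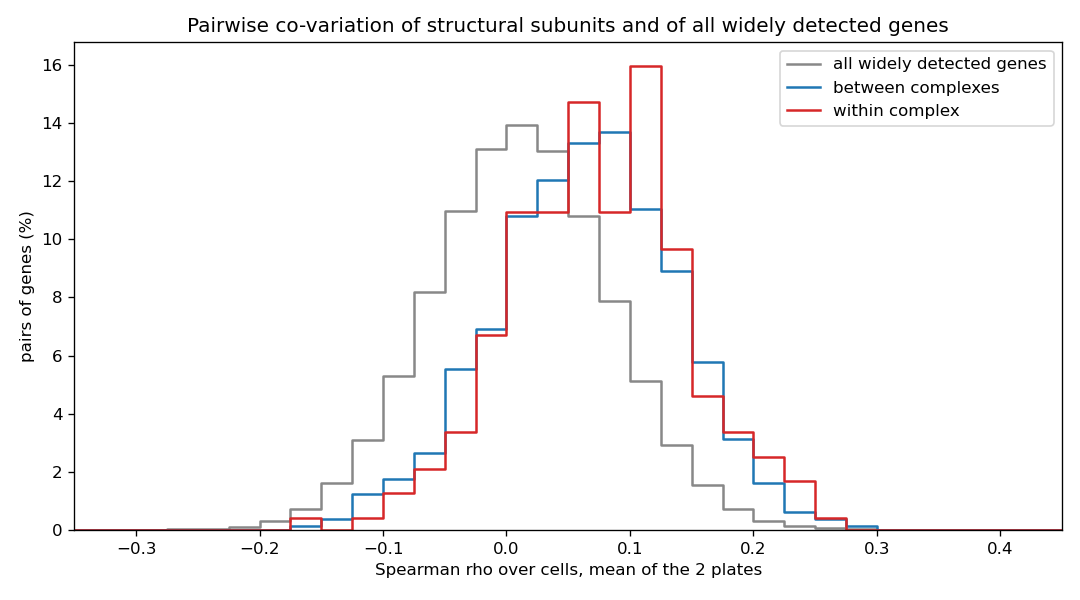
The x axis is the Spearman rho of 2 genes over cells, averaged over the 2 plates, and the y axis the percentage of pairs. The red line holds the 238 pairs of structural genes within a complex, the blue line the 797 pairs between complexes and the grey line all pairs of 866 widely detected genes; the red and blue lines lie nearly on each other (means 0.074 and 0.064), to the right of the grey one (0.012).

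The plates gave nearly the same levels. Of 82 respiratory chain genes with a mean of 20 CPM or more, 0 were over 2-fold higher on plate 3, against 3.47% of all 7289 such genes. On plate 2, 1 was over 2-fold higher, against 6.11% of all. This was Ndufaf7, a complex I assembly factor, which averaged 51.9 ± 144 CPM over plate 2 and 20.9 ± 82.3 CPM over plate 3 (35 of 162 and 12 of 88 cells), and 1 cell gave 9.65% of its summed CPM. The median log2 ratio of plate 3 over plate 2 was 0.06 for the 82 genes and -0.03 for all. By complex it lay between 0.06 (complexes II and V) and 0.15 (complex IV), and the 12 assembly factors had -0.33. Among structural genes Uqcrb differed most, at 19.1 ± 34.0 CPM on plate 2 and 36.4 ± 46.6 CPM on plate 3 (log2 ratio 0.90), less than the spread between cells. Its count is uncertain, with 72.9% of its coding words in copies elsewhere. Next came Ndufs7 (log2 ratio 0.53, 133 ± 174 against 193 ± 224 CPM) and Ndufs6 (0.52).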

How the data were processed

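Full-length polyadenylated cDNA of single sorted cells was made with Smart-seq2 in 384-well plates. The deposited table, which the authors named raw read counts and whose values are whole numbers, gives counts per gene for 250 cells; 0 columns lacked a sample. Reads were aligned with STAR 2.4.2a to mm10, per the submitters' processing notes; the sources used here give no counter, annotation, strand setting, read length or filter. The second table, of the same cells scaled to a like total, was not used here. Counts were divided by the total of the cell and multiplied by 1000000 (CPM). Lengths (union of exons), positions, overlapping genes and 50-base words came from GENCODE M21 on GRCm38, the assembly of mm10; all 101 genes matched. Promoters came from RefSeq (GRCm38.p6). Detection meant 10 CPM; plate ratios used a pseudocount of 1. Python 3.11.15, numpy 2.4.6, scipy 1.17.1 and pandas 2.3.3 were used, and correlations and ratios were checked on simulated counts. Any gene of the rule could be named; fuller values went to isoforms, to the 3 highest and the lowest gene per length of each complex, to the 5 pairs and to the genes furthest apart between plates, and obligate subunits under 10 CPM were added after their values were seen. The genes, lists and motifs were chosen with earlier results of these data known. Other thresholds, scalings, lengths and plates alone were tried; comparisons with genes under 1500 bases, with the principal transcript, with copies and with genes of few shared words were chosen after seeing the data. Depth was 102161 to 564958 reads per cell. Intervals cover counting error only, since PCR copies were not removed by molecular identifiers. Values of some single genes are not reported here.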

Additional observations from a re-analysis of the deposited data

How the results depend on the processing

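Of 90 values recomputed under alternatives, 84 kept their direction and moved by less than the spread between cells or plates, or by less than 1.5 times for a count. For levels the spread between cells is wide, so this rule is lenient. The complex I sum, 3681 CPM as reported, was 2708 CPM over the 25 genes with under 10% of words in another gene, and is among the 84. The count of genes detected in at least 50% of cells was 33 at 50 CPM in place of 51, against 4.28% of all genes at that threshold. It was 59 with 1 read (7.97% of all genes), 49 with thinned cells (5.73%), and 47 and 53 on plates 2 and 3 alone (5.82 and 6.43%). Over genes with under 10% of words in another gene, an alternative chosen after seeing the data, the complex IV sum was 792.7 CPM and the complex V level 231 CPM per kb. The common subunits of complex IV then stood at 243 CPM per kb (5 genes), ahead of complexes V, III (198), II (127) and I (95.4). With the tissue isoforms kept, complex IV stood at 95.1 (13 genes), level with complex I and below complexes II, III and V. Under the other alternatives its common subunits stood at 204 to 263 CPM per kb, with 230 without Cox7a2l. With a mean of 5 CPM or more, 1 of 88 genes was over 2-fold higher on plate 3 in place of 0 of 82, against 6.5% of all genes. The difference in rho between pairs within and between complexes turned to -0.010 over genes detected in at least 20% of cells, and to -0.0016 on plate 3 alone. It was 0.022 on plate 2 alone, 0.0094 with thinned cells and 0.010 given total reads and genes detected. The cells have no known animals, so no spread between animals can be given. No paired analysis was possible because the cells form 1 group. Genes near 10 CPM rest on few reads in a cell at this depth.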
